A study of Mus musculus with 15 samples.

Results

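The colon of mice that were returned to free feeding after dietary restriction was compared with the colon of restricted mice, gene by gene, to describe which differences between restricted and freely fed mice were reversed. The study fed male C57BL/6 mice 3 diets and sequenced RNA from 5 tissues, 15 libraries in all. AL mice ate ad libitum and were 5 months of age. DR mice, also 5 months of age, were restricted by 40% for 1 month from 4 months of age. DR-AL mice had the same month of restriction, were then fed AL for 2 months and were 7 months of age, so that refeeding and the added age cannot be told apart. The colon samples were intestinal mucosa, and the RNA of 5 mice was pooled into 1 library per diet. Of the 33603 loci in the table, 23589 have a gene name, and the 18242 with at least 1 count over the 3 colon libraries were compared. A locus is called a gene here, although 581 of those compared carry several gene names.

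The inner surface of the colon is a single layer of epithelium that is renewed from stem cells in the crypts, whose daughters divide several times, differentiate into absorptive colonocytes, mucus-secreting goblet cells, hormone-secreting enteroendocrine cells and chemosensory tuft cells, and are shed into the lumen. Colonocytes take up water, salt and the short-chain fatty acids made by bacteria, burn butyrate and can turn part of it into ketone bodies. The mucosa beneath holds lymphocytes, macrophages, vessels, fibroblasts and thin smooth muscle.

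The markers of the labelled tissue were abundant in all 3 libraries. Lypd8, which keeps bacteria off the epithelium, stood at 14872 CPM in AL, 14939.7 CPM in DR and 15186 CPM in DR-AL, where CPM is the count of a gene divided by the total on named genes and multiplied by 1000000. The mucin Muc2 stood at 3583, 4262 and 5629 CPM in the same order, and the chloride and bicarbonate exchanger Slc26a3 at 2098, 2763 and 2424 CPM. Counts on named genes numbered 26554699 for AL, 33422262 for DR and 25043727 for DR-AL. No library had a replicate, so no difference below has a replicate check in the sequencing data. Intervals in parentheses are exact 95% intervals that cover counting error only. For Hsph1 and Ncoa7 in the colon, the study also ran PCR on individual mice. It reported a rise of Hsph1 and a fall of Ncoa7 in DR, both kept after refeeding. Levels in bulk tissue do not separate fewer cells of a type from less RNA per cell.

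A gene was called changed by the Z test of the study's methods, which compares the square roots of scaled counts on the error of counting alone, with a p under 0.05 after Benjamini-Hochberg adjustment and the higher library at least 25% above the lower. The test compares 2 libraries and not the diets. Between DR-AL and DR, 2636 genes changed, 14.5% of those tested. Of these, 1236 were higher in DR-AL (6.78% of genes tested) and 1400 were lower (7.67%). Where both libraries averaged 100 counts or more, which held for 10512 genes, 6.31% were higher and 8.32% lower. The median log2 fold change of all genes was -0.02. A change of at least 2-fold was seen in 1118 genes (6.13%), with 540 higher and 578 lower. The changed genes were higher in DR-AL in 46.9% of cases by counts, but in 57.5% when the fold was taken from FPKM values with a pseudocount of 0.1. A total of 172 of the changed genes had at most 5 counts in the library where they were higher.

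Between DR and AL, 1649 genes were higher in DR (9.04%) and 1937 were lower (10.6%). Of these 3586 genes, 1279 changed in the opposite direction between DR-AL and DR and are called reversed (7.01% of genes tested). Genes raised in DR were reversed in 37.7% of cases and genes lowered in DR in 34.0%. In 1014 reversed genes (79.3%) DR-AL and AL did not differ by the same rule, and these are said to have returned. Another 139 reversed genes fell short of the AL level and 126 went past it. Of the 139 that fell short, 112 had been lowered in DR. No call between DR-AL and DR was made for 2260 of the 3586 genes (63.0%), and 47 moved further in the direction they had taken in DR. The other 1310 genes changed after refeeding had no call between DR and AL. Both comparisons use the same DR library, whose own error enters both, so these counts were read against no chance level. Between DR-AL and AL, 14.3% of genes tested differed.

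**Figure D1:**
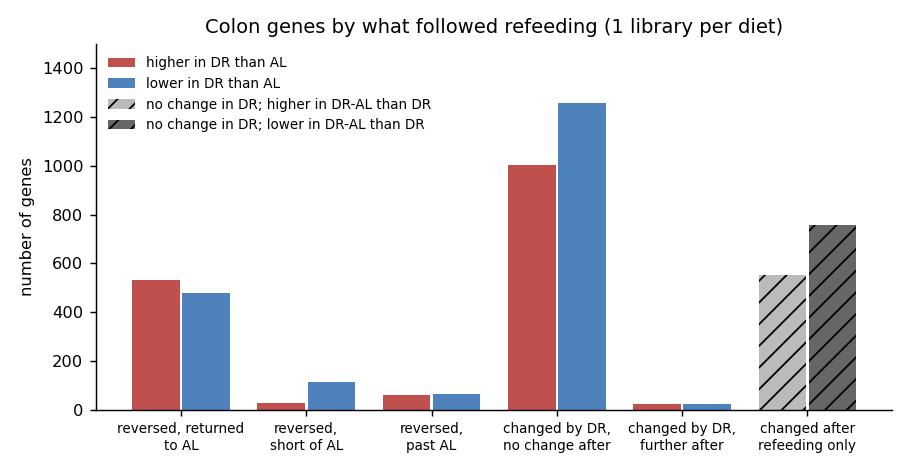
Number of colon genes in each class, for genes higher (red) or lower (blue) in DR than in AL; the hatched bars are the genes with no call between DR and AL, higher (light) or lower (dark) in DR-AL than in DR. The bars for no change after refeeding, 1004 and 1256 genes, are taller than those for genes that returned, 534 and 480.

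Allowing for variation between libraries beyond counting error lowered these counts. In a negative binomial exact test with a biological coefficient of variation of 0.1, 667 genes changed between DR-AL and DR and 308 were reversed. With the dispersion estimated over the 3 colon libraries without regard to diet, a coefficient of variation of 0.164 that takes up any effect of diet, 312 changed and 99 were reversed. The latter is called the wider error below, and the number of calls it leaves is given beside each group. Over all 18242 genes tested, it left 178 higher and 134 lower in DR-AL than in DR. Single genes named outside these groups are given without it.

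Cell division genes moved together. Of 25 genes measured, 23 were higher in DR than in AL, 19 fell between DR and DR-AL and none rose. The same 19 were the reversed ones, of which 14 returned, 3 went past AL and 2 fell short. The median log2 fold change was 1.13 from AL to DR and -1.09 from DR to DR-AL. The summed level of the list was 358, 709.8 and 369.6 CPM in AL, DR and DR-AL. Of the 25, 12 were lower with the wider error.

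Mki67, the Ki-67 antigen of dividing cells, stood at 45.4 CPM in AL, 131 CPM in DR and 41.2 CPM in DR-AL, a log2 fold change from DR to DR-AL of -1.67 (-1.77 to -1.58). Ccnb2, a B-type cyclin that drives entry into mitosis, stood at 9.64 CPM in AL, 30.7 CPM in DR and 7.75 CPM in DR-AL, a change of -1.99 (-2.22 to -1.77). Ccna2, the cyclin of S and G2 phase, changed by -1.73 (-1.89 to -1.57), Cdk1, the kinase that these cyclins activate, by -1.58 (-1.80 to -1.36), and Top2a, which untangles replicated chromosomes, by -1.66 (-1.80 to -1.52). The DR library was the high one for each of these genes, and DR-AL lay at or below AL. The 6 Mcm genes, subunits of the replicative helicase, changed by -0.52 to -0.11 and 3 of them had no call after refeeding. Mcm5 stood at 10.5 CPM in AL, 21.5 CPM in DR and 15 CPM in DR-AL and changed by -0.52 (-0.70 to -0.34), which left it above AL. Pcna, the clamp that holds DNA polymerase, stood at 61.2 CPM in AL, 68.2 CPM in DR and 71.8 CPM in DR-AL and had no call in either comparison, as did Tyms, which makes thymidylate.

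The promoters of 3 of these genes are shown because genes of mitosis are known to share a promoter structure of CCAAT boxes (CCAAT) and a cell cycle homology region (TTTGAA). Each line gives the 200 bases before the gene start from RefSeq on GRCm38.p6, 5′ to 3′, with matches to either motif on either strand in capitals. Mki67 lies at chr7:135716380-135716579, minus strand, Cdk1 at chr10:69352913-69353112, minus strand and Ccnb2 at chr9:70421555-70421754, minus strand.
Mki67: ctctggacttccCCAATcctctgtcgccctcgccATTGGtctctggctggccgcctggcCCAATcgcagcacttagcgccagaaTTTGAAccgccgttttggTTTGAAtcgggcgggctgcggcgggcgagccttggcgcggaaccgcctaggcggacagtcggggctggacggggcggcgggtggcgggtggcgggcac
Cdk1: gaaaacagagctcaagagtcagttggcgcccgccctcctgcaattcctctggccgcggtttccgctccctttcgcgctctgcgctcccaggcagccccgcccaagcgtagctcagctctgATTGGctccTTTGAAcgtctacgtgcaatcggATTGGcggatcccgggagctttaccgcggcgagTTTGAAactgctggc
Ccnb2: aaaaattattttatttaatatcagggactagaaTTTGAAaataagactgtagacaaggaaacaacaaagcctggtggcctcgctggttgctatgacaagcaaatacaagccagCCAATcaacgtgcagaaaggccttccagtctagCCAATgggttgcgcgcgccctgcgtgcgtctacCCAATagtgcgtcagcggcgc
The window of Mki67 holds 3 CCAAT boxes and 2 of the second motif, that of Cdk1 holds 2 and 2, and that of Ccnb2 holds 3 and 1. In windows from 250 bases before to 50 after the start, 78.3% of the 23 windows of the list held CCAAT, against 37.4% of all 32851 windows. That share was not particular to cell division. It was 78.6% for cholesterol genes and 75% for core clock genes, and 44.4% for clock output and 39.1% for heat shock genes. The second motif was in 39.1% of the cell division windows against 17.9% of all windows. Both motifs were added after the values were seen, and a match describes the letters only.

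The largest falls at a mean count of 100 or more included those of Nuf2, Actg2, Ttk, Melk, Ccnb2, Ccnf and Espl1. Nuf2 is a part of the outer kinetochore, Ttk a kinase of the spindle checkpoint, Ccnf a cyclin, and Espl1 the protease separase that cuts cohesin at anaphase. Nuf2 stood at 3.8 CPM in AL, 9.39 CPM in DR and 2.0 CPM in DR-AL, a change of -2.22 (-2.70 to -1.80), and Ttk at 2.3, 7.3 and 1.68 CPM in the same order. The genes most strongly reversed downwards were Ccnb2, Ttk, Cdca2, Kif18b, Sgol1, Esco2, Tpx2 and Cenpf. Kif18b and Tpx2 act on spindle microtubules, Sgol1 and Esco2 on sister chromatid cohesion and Cenpf at the kinetochore. Cdca2 stood at 2.11 CPM in AL, 8.23 CPM in DR and 2.36 CPM in DR-AL, so that refeeding left it close to AL, with a log2 fold change of 0.16 (-0.39 to 0.71) between DR-AL and AL. All 8 returned to the AL level by the rule.

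Stem cell genes moved less. Of 14 measured, 9 were higher in DR, 3 were reversed and the median from DR to DR-AL was -0.15, with none called under the wider error. Ascl2, a transcription factor of crypt stem cells, stood at 3.24 CPM in AL, 6.28 CPM in DR and 5.55 CPM in DR-AL and had no call after refeeding. The Wnt target Axin2, which shares its locus with Cep112, was reversed. Lgr5, the receptor that marks these cells, stood at 4.67, 4.94 and 5.03 CPM and changed in neither comparison.

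**Figure D2:**
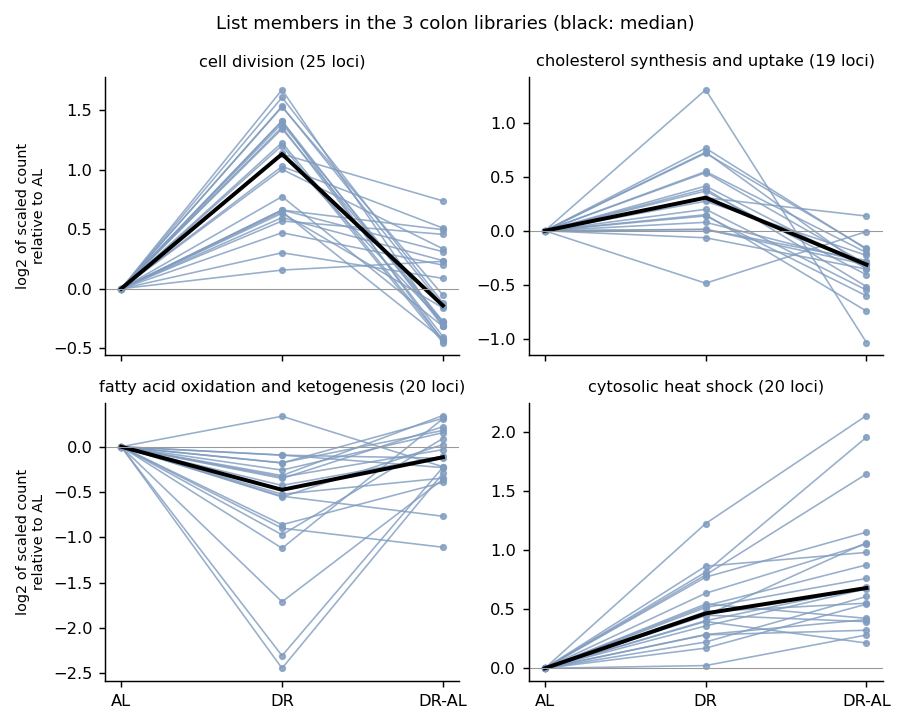
Scaled counts of each list member (blue) and their median (black) in AL, DR and DR-AL, on a log2 scale relative to AL; loci at 0 in a library or under 20 counts in all 3 are left out. Cell division genes peak in DR, cholesterol genes end below AL in DR-AL, fatty acid oxidation genes dip in DR, and heat shock genes are highest in DR-AL.

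Cholesterol synthesis and uptake genes also fell after refeeding, several of them to below AL. Of 19 measured, 9 were higher in DR than in AL, 15 fell between DR and DR-AL, 1 rose and 10 were reversed. The median from DR to DR-AL was -0.75, and 9 genes in all were lower in DR-AL than in AL. The wider error left 1 of the 19. Sqle, the squalene epoxidase, stood at 62.1 CPM in AL, 105 CPM in DR and 55.1 CPM in DR-AL, a change of -0.93 (-1.03 to -0.84). Idi1, an isomerase of the isoprenoid pathway, stood at 60.0 CPM in AL, 99.4 CPM in DR and 47 CPM in DR-AL, a change of -1.08 (-1.18 to -0.98). In both genes DR was the highest library and DR-AL the lowest. The gene that rose was Insig1, which retains the sterol sensor in the endoplasmic reticulum, at 156 CPM in AL, 111 CPM in DR and 155 CPM in DR-AL. Acat2, an acetoacetyl-CoA thiolase, held 1 of the 2 sterol elements (CACCCCAC on either strand) found in the 14 windows of the list. The element was in 14.3% of these windows against 2.87% of all windows. It was also in 12.5% of the 16 core clock windows, and in none of the clock output, heat shock and cell division windows. The 200 bases before the start of Acat2 (chr17:12960726-12960925, minus strand) are shown with the match in capitals.
Acat2: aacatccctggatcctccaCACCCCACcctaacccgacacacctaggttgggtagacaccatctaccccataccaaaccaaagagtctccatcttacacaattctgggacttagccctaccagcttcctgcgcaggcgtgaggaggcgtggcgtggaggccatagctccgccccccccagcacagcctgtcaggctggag
The level of Acat2 was 12.8, 18.7 and 11.1 CPM in AL, DR and DR-AL.

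Fatty acid synthesis genes were mixed. Of 15 measured, 5 fell and 2 rose from DR to DR-AL, with a median of -0.19. The wider error left 1 in each direction, Scd2 downwards and Scd1 upwards. The rise of Scd1 rests on a listed 0 in DR that is in doubt, as described below. Scd2, a stearoyl-CoA desaturase whose locus includes a microRNA, stood at 346 CPM in AL, 698 CPM in DR and 225 CPM in DR-AL, a change of -1.63 (-1.67 to -1.59) to below AL. Fads2, the delta-6 desaturase, rose in DR and returned, at 191, 263 and 193 CPM. Acly, which makes cytosolic acetyl-CoA, was higher in DR and had no call after refeeding. Scd1, the main desaturase of liver and fat (chromosome 19, 44394450 to 44407709, in RefSeq on GRCm38.p6 like all gene positions here), was listed at 1252, 0 and 1255 counts for AL, DR and DR-AL. It was also listed at 0 in the DR library of the other 4 tissues, where AL and DR-AL held at least 5683 counts each, and it was the 1 gene with such a pattern. An exact 0 of this kind can be a value that was not estimated, so no fold is given, although Scd1 is 1 of the 1279 genes counted as reversed. The 2 genes that rose were Scd1 and Acacb, the acetyl-CoA carboxylase of the outer mitochondrial membrane, which was reversed, at 15.4, 8.44 and 17.7 CPM.

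Genes that burn fatty acids and make ketone bodies took the opposite course. Of 21 loci measured, 12 were lower in DR than in AL, 12 rose between DR and DR-AL and 1 fell. The 9 reversed loci were 8 that rose and 1 that fell, of which 7 returned and 2 fell short of AL. The median was -0.52 from AL to DR and 0.41 from DR to DR-AL. Of the 21, 4 were higher with the wider error. Angptl4, an inhibitor of lipoprotein lipase, stood at 6.97 CPM in AL, 1.41 CPM in DR and 5.95 CPM in DR-AL, a rise of 2.07 (1.60 to 2.59). Pdk4, which holds back pyruvate oxidation, stood at 60.8 CPM in AL, 31 CPM in DR and 64.7 CPM in DR-AL, a rise of 1.06 (0.95 to 1.18), and DR-AL was level with AL. For both genes the DR library was the low one. Both subunits of the mitochondrial trifunctional protein, Hadha and Hadhb, rose by 0.66 (0.63 to 0.70) and 0.57 (0.53 to 0.62). Ppara, the nuclear receptor that drives many of these genes, stood at 58.4 CPM in AL, 31.3 CPM in DR and 27.1 CPM in DR-AL and was not reversed. The gene that fell was Bdh1, which interconverts the ketone bodies, at 114, 144 and 97.9 CPM.

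The genes reversed upwards most strongly, besides Scd1, were Coro1a, Creb3l3, Arg2, Angptl4, Cyp4b1, Cyp3a44 and Enpep. Creb3l3, a membrane-bound transcription factor of fasting metabolism in liver and gut, stood at 60.7 CPM in AL, 16.5 CPM in DR and 73 CPM in DR-AL, a rise of 2.15 (2.01 to 2.29). Cyp4b1, a cytochrome P450 that acts on fatty acids and foreign compounds, stood at 105 CPM in AL, 14.6 CPM in DR and 55.5 CPM in DR-AL, a rise of 1.93 (1.78 to 2.08) that left it at -0.93 (-1.02 to -0.83) against AL. Arg2, the mitochondrial arginase, stood at 12.7, 2.18 and 8.82 CPM and also fell short. Cyp3a44, a P450 with close paralogs whose reads may be shared, stood at 9.04, 0.957 and 3.55 CPM, and the aminopeptidase gene Enpep, at 13.5, 3.77 and 11.7 CPM, returned.

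Lymphocyte genes were low in DR and high again in DR-AL. Of 14 B and plasma cell genes measured, 10 were lower in DR, 11 rose from DR to DR-AL and 10 were reversed, 8 of them to above AL. The median was -1.72 from AL to DR and 2.26 from DR to DR-AL. The wider error left 10 of the 14. Cd79a, a signalling chain of the B cell receptor, had 68, 26 and 187 counts in AL, DR and DR-AL, a rise of 3.23 (2.67 to 3.91). Cd79b, its partner, had 59, 19 and 123 counts. Both were highest in DR-AL. Igj, the chain that joins secreted IgA, had 472, 177 and 409 counts and returned to AL. Of 14 T cell genes, 12 rose and 8 were reversed, with a median of 1.95, and 6 rose with the wider error. Lck, the kinase of the T cell receptor, had 100, 46 and 93 counts, and Cd8a, the coreceptor of cytotoxic T cells, had 59, 14 and 41 counts. Gzma, a granzyme, had 100, 14 and 19 counts and was not called after refeeding. These are low levels, and the whole T cell list summed to 537, 150 and 444 counts for AL, DR and DR-AL. Xbp1, which secretory epithelium makes too, held most counts of the B and plasma cell list and had no call.

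Several of the largest rises were also genes of white blood cells. Coro1a, an actin regulator of leukocytes, had 157, 58 and 199 counts, Arhgdib, a GTPase inhibitor of blood cells, had 96, 48 and 169 counts, and Cd52, a surface peptide of lymphocytes, had 130, 65 and 197 counts. Each was lowest in DR and went past AL. Of 14 macrophage genes, 7 rose from DR to DR-AL and 1 was reversed, which was Lyz2, a lysozyme, at 20.8, 13.1 and 26.2 CPM. The wider error left none of the 14. Among 16 antigen presentation loci, 8 rose and 6 were reversed, with none left under the wider error. Of these 8, 7 were class II genes or their regulator Ciita, and the other was Nlrc5, a regulator of class I genes. H2-Eb1, a class II chain, stood at 18 CPM in AL, 10.8 CPM in DR and 22.5 CPM in DR-AL, and Cd74, the class II invariant chain, at 61.5, 46.2 and 84.5 CPM. H2-K1, a class I chain found on nearly all cells, stood at 1496, 1320.1 and 1373 CPM and had no call.

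Tuft cell genes returned as a group. Of 9 measured, 8 were lower in DR and 7 rose and were reversed, 6 of them to the AL level, with medians of -0.98 and then 0.73. No tuft cell gene was called with the wider error. Trpm5, the cation channel of taste and tuft cells, stood at 15.5 CPM in AL, 6.91 CPM in DR and 13.3 CPM in DR-AL, a rise of 0.95 (0.70 to 1.20). Dclk1, a kinase that marks tuft cells, stood at 16.5, 8.35 and 13.1 CPM and fell short. The summed level of the list was 58.2, 30.5 and 52.3 CPM in the same order. Enteroendocrine genes were mixed, with 7 of 17 higher in DR-AL, 1 lower and 4 reversed, and none called under the wider error. Gcg, the precursor of glucagon-like peptides, changed only after refeeding, at 40.6, 35.3 and 58.9 CPM. Goblet cell genes rose in 5 of 15 cases and fell in 1, and Muc2 rose by 0.40 (0.39 to 0.41) in the Z test. The 1 goblet cell gene that rose with the wider error was Retnlb, which is also counted in the antimicrobial list.

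Antimicrobial genes returned in part. Of 20 loci measured, 10 were lower in DR, 11 rose after refeeding, none fell, and 8 were reversed, of which 4 fell short, 2 returned and 2 went past AL. Reg3b, a lectin that kills bacteria, stood at 192 CPM in AL, 5.71 CPM in DR and 12.8 CPM in DR-AL. The log2 difference was -5.07 (-5.29 to -4.86) from AL to DR and 1.16 (0.90 to 1.43) from DR to DR-AL. Reg3g, its close relative, stood at 43.2, 2.42 and 5.63 CPM, and Retnlb, a goblet cell protein that acts on bacteria, at 41.6, 4.76 and 12.6 CPM. Ang4, an angiogenin of the gut, stood at 128, 24.1 and 43.3 CPM. These 4 were the genes that fell short, and DR-AL lay nearer to DR than to AL for each. Saa1, an acute-phase apolipoprotein, was not lowered in DR and rose after refeeding, at 1553, 1777 and 2538 CPM. A small proline-rich gene, Sprr2a1, was listed at 2 loci that each rose, and reads of its near-identical copies may be divided between them. With the wider error, 3 of the 20 loci were higher in DR-AL.

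Genes of tissues beneath or beside the mucosa differed between the same 2 libraries. Of 11 adipocyte loci, 8 rose from DR to DR-AL and 7 were reversed, with a median of 1.52, and 5 rose with the wider error. Fabp4, the fatty acid binding protein of fat cells, had 283, 122 and 280 counts, Adipoq, the hormone adiponectin, had 71, 22 and 64 counts, and Plin1, which coats lipid droplets, had 28, 4 and 38 counts. Cfd, also called adipsin, had 171, 70 and 217 counts and went past AL. Lep, the hormone leptin, had 0 counts in DR. The whole list summed to 8360, 7020 and 6922 counts (314.8, 210.04 and 276.4 CPM), of which these named genes held a small part. Smooth muscle genes ran the other way, with 11 of 16 loci lower in DR-AL than in DR, none higher and 5 reversed, at a median of -0.95, and 5 were lower with the wider error. Acta2, smooth muscle actin, had 331, 689 and 136 counts, and Actg2, the actin of visceral muscle, had 167, 290 and 49 counts, a change of -2.14 (-2.62 to -1.71). Both were highest in DR and lowest in DR-AL, and the list summed to 225, 245 and 155 CPM. Enteric neuron and glia genes were lower in 3 of 13 cases, with none reversed and none called under the wider error. Collagen and matrix genes were reversed downwards in 8 of 19 cases and upwards in 1, Mmp7, and Col3a1, a fibrillar collagen, had 279, 534 and 205 counts. None of these 19 was called with the wider error, and at a coefficient of variation of 0.1 none was reversed.

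Pancreatic enzyme genes were high in DR-AL alone. Of 9 acinar genes measured, 8 were higher in DR-AL than in DR, 7 of them with the wider error, and none was reversed. Ctrb1, the precursor of chymotrypsin, had 54 counts in DR-AL and 0 in the other libraries, which is at least 24.0-fold higher than DR, since a count of 0 allows up to 3 counts per library. Pnlip, pancreatic lipase, had 41 counts in DR-AL and 0 in both others, at least 18.2-fold higher. Cela1, an elastase that the gut expresses too, stood at 219, 254 and 234 CPM and had no call. The median of the list was 5.30 with a pseudocount of 0.5 and 3.83 with genes at 0 in DR set to their bound. Fat, muscle, nerve and pancreas genes thus differed between the libraries that give every result here, and their part in the other results was not tested.

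**Figure D3:**
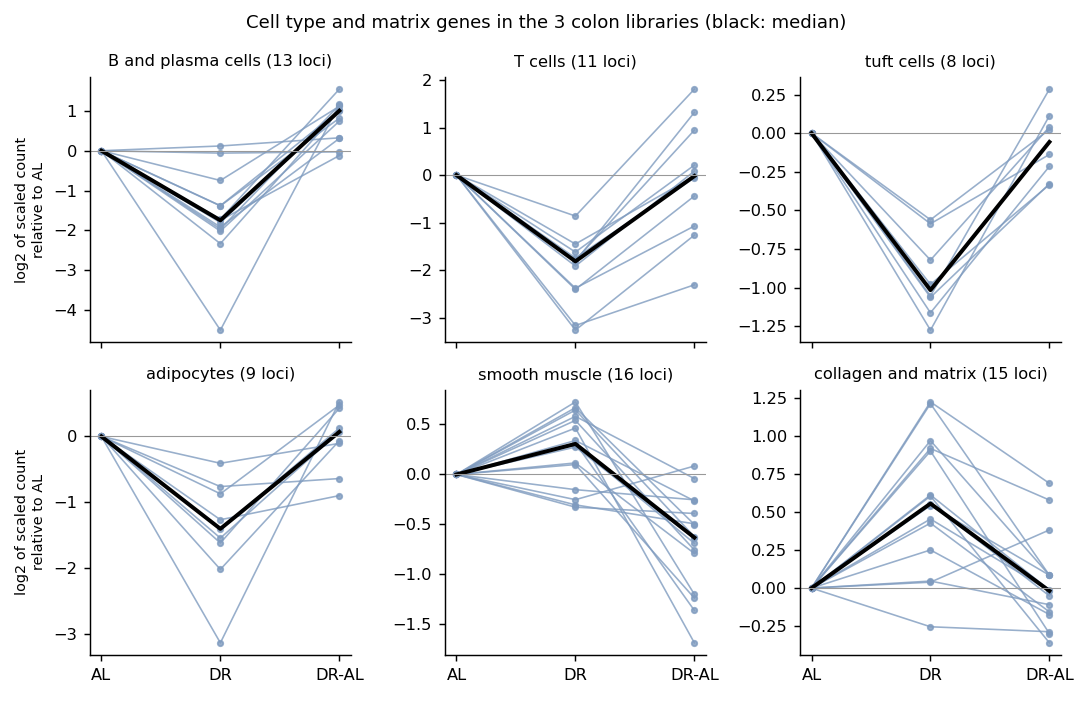
Scaled counts of markers of other cell types and of matrix genes (blue) and their median (black) in AL, DR and DR-AL, on a log2 scale relative to AL; loci at 0 in a library or under 20 counts in all 3 are left out. Lymphocyte, tuft and adipocyte genes are lowest in DR, and smooth muscle genes are lowest in DR-AL.

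Heat shock genes were not reversed. Of 21 genes measured, 15 were higher in DR than in AL and 17 were higher in DR-AL than in AL. Between DR and DR-AL, 8 rose, 7 of which were among the 15, and none fell. The median was 0.48 from AL to DR and a further 0.28 from DR to DR-AL. With the wider error no gene of the list was called between DR-AL and DR, and 3 were with a coefficient of variation of 0.1. Hsph1, a cochaperone of the HSP110 family (chromosome 5, 149616843 to 149636498), stood at 18.1 CPM in AL, 42.4 CPM in DR and 80.0 CPM in DR-AL, a rise of 0.92 (0.82 to 1.01). Hspa1a, an inducible HSP70, stood at 3.5 CPM in AL, 6.16 CPM in DR and 13.6 CPM in DR-AL, a rise of 1.14 (0.89 to 1.40), though reads may be shared with its near-identical copy Hspa1b. Hspa8, the constitutive HSP70, stood at 1272 CPM in AL, 1734 CPM in DR and 2661 CPM in DR-AL, a rise of 0.62 (0.60 to 0.63). The libraries ran in the order AL, DR, DR-AL for all 3. Hspd1 and Hspa4 were higher in DR and had no call afterwards. Of the 24 genes that were higher in DR and rose further, 7 were of the heat shock list. The heat shock element, searched as GAANNTTC, was in 47.8% of the 23 windows of the list against 7.86% of all windows. It was also in 21.7% of cell division and 7.14% of cholesterol windows, and in none of the core clock and clock output windows. The windows of Hspa1a (chr17:34972157-34972356, minus strand) and Dnaja1 (chr4:40722268-40722467, plus strand), an HSP40 that rose by 0.42 (0.36 to 0.47), are shown for the 200 bases before the start with the element in capitals.
Hspa1a: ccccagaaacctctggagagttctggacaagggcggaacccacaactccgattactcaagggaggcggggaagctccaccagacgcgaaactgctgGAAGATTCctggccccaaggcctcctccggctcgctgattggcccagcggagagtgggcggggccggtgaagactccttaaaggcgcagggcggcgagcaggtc
Dnaja1: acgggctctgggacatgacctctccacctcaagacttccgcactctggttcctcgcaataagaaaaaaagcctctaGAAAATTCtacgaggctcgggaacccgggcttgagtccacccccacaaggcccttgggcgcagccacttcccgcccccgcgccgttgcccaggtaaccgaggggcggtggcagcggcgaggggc
Each of these windows holds 1 match. Dnaja1 has 2 other start sites whose 200 bases hold 0 matches.

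Endoplasmic reticulum stress genes were also higher in DR. Of 22 loci, 11 were higher and 2 lower in DR, 6 rose from DR to DR-AL, none fell and 1, at 3 counts or fewer in every library, was reversed. None was called between DR-AL and DR with a coefficient of variation of 0.1 or with the wider error. Hspa5, also called BiP, stood at 318 CPM in AL, 514 CPM in DR and 669 CPM in DR-AL, a rise of 0.38 (0.35 to 0.41). Calr, the calcium-binding chaperone calreticulin, was higher in DR and did not change after, at 411, 574 and 571 CPM.

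Interferon response genes lowered in DR were mostly not reversed. Of 24 interferon response loci, 9 were lower in DR, 10 were lower in DR-AL than in AL and 1, Gbp2, was reversed. The 2 that rose from DR to DR-AL were not called with the wider error. Irf7, a regulator of interferon genes, stood at 233 CPM in AL, 139 CPM in DR and 151 CPM in DR-AL, and Ifit1, an antiviral protein, at 28.2, 12.8 and 11.7 CPM. The 3 haemoglobin loci and Alas2, which starts haem synthesis in red cells, were lower in DR and not reversed. Of 23 xenobiotic metabolism loci, 13 were lower in DR, 6 rose and 5 fell after refeeding, and 6 were reversed, with 1 called under the wider error. Cyp2c55, an abundant P450 of the colon, stood at 4385 CPM in AL, 2888 CPM in DR and 2297 CPM in DR-AL and was called as falling further. Its log2 fold change of -0.33 (-0.35 to -0.32) lay close to the 25% cutoff, and its FPKM was 1391.7 in DR and 1291.3 in DR-AL. With scaling by DESeq size factors or TMM factors, 2 loci of the list were lower and not 5. Ces2a, a carboxylesterase, stood at 739, 345 and 506 CPM and fell short. Car1, a carbonic anhydrase of colonocytes, stood at 6159.8, 4203 and 3535 CPM, with no call after refeeding.

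Ncoa7 and Nts were in part reversed. Ncoa7, a nuclear receptor coactivator (chromosome 10, 30645582 to 30807700), stood at 178 CPM in AL, 38.6 CPM in DR and 61.7 CPM in DR-AL. The log2 fold change was -2.20 (-2.30 to -2.12) from AL to DR and 0.68 (0.57 to 0.79) from DR to DR-AL. Nts, the peptide neurotensin (chromosome 10, 102481756 to 102490418), stood at 19 CPM in AL, 3.95 CPM in DR and 6.23 CPM in DR-AL, a change of -2.26 (-2.56 to -1.99) and then 0.66 (0.31 to 1.00). Both stayed nearer to DR than to AL. For Nts, which the study calls Nts1, its PCR in the colon showed a rise with restriction, the opposite direction. That PCR used other mice, with longer restriction and longer refeeding, and the difference was not tested here. Actb, a cytoskeletal actin, stood at 2774, 2958 and 3195 CPM and changed in neither comparison.

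Ion transport genes fell into several classes. Of 21 loci, 7 rose and 4 fell from DR to DR-AL, and 5 were reversed, while 3 rose and 1 fell with the wider error. Aqp4, a water channel, stood at 265 CPM in AL, 615 CPM in DR and 248 CPM in DR-AL, a change of -1.31 (-1.35 to -1.27) to the AL level. Scnn1b and Scnn1g, the beta and gamma subunits of the epithelial sodium channel, were reversed upwards past AL, at 23.2, 11.6 and 33.6 CPM and 17.4, 11.7 and 26.7 CPM. The alpha subunit Scnn1a stood at 364, 431 and 434 CPM and had no call. Atp12a, the colonic proton and potassium pump, rose in both steps, at 488 CPM in AL, 776 CPM in DR and 1808 CPM in DR-AL. Housekeeping lists hardly moved: none of 20 respiratory chain genes and none of 20 cytosolic ribosome genes was called in either comparison, with medians of -0.05 and -0.09 from DR to DR-AL.

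Clock genes changed after refeeding, most of them without a call between DR and AL. Of 15 core clock genes, 4 rose and 5 fell from DR to DR-AL, and 2 were reversed. The repressors Per1 and Per3 and the receptor Nr1d2 fell, with log2 fold changes of -0.50 (-0.61 to -0.40), -0.45 (-0.59 to -0.32) and -0.37 (-0.44 to -0.30), although the FPKM values of Nr1d2 gave a log2 fold change of 0.001. The activators Arntl and Npas2 and the repressor Cry1 rose, by 0.57 (0.45 to 0.70), 0.52 (0.41 to 0.64) and 0.50 (0.37 to 0.64). Dbp, a clock-driven transcription factor, was reversed past AL, at 74.7 CPM in AL, 97.9 CPM in DR and 30.9 CPM in DR-AL, a change of -1.66 (-1.78 to -1.55). Tef, its relative, stood at 181, 159 and 91.8 CPM, and Usp2, a deubiquitinase under clock control, at 42, 48.2 and 21.4 CPM. Gm129, now named Ciart, a repressor of the clock activators, stood at 21.4, 26.6 and 10.4 CPM, a change of -1.36 (-1.56 to -1.16). With the wider error, 1 of the 15 core genes and 2 of 9 clock output loci were lower. The E-box (CACGTG), to which the clock activators bind, was in 25% of the 16 windows of the core list against 7.15% of all windows. It was also in 33.3% of the 9 clock output windows and 21.4% of the 14 cholesterol windows, so a high share was not particular to clock genes. It was in 13.0% of heat shock and 4.35% of cell division windows. The 200 bases before the start of Ciart (chr3:95882229-95882428, minus strand) are shown with the E-box in capitals.
Ciart: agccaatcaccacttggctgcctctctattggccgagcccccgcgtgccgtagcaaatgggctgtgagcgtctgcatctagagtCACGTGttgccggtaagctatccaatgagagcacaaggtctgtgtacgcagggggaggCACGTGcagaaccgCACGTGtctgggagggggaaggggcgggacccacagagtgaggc
This window holds 3 E-boxes.

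Where libraries averaged 100 counts or more, the largest rises without a call between DR and AL were those of Sprr2a1, St8sia5, Anpep and Fxyd4. Anpep, an aminopeptidase of the brush border, stood at 7.57 CPM in AL, 7.21 CPM in DR and 17.1 CPM in DR-AL, a rise of 1.24 (1.01 to 1.48), and Fxyd4, a regulator of the sodium pump in the colon, at 36.4, 41.6 and 87.8 CPM. St8sia5, a sialyltransferase, stood at 10.5, 9.48 and 26.4 CPM. The largest falls were those of Myl9, Gm129, Tagln and Palm. Myl9 and Tagln, of smooth muscle, had 147, 230 and 54 counts and 517, 697 and 207 counts. Immediate early genes rose in 10 of 19 cases with none lower, 2 of them reversed, and in 1 with the wider error. Fos, a part of the AP-1 transcription factor, was at 238 CPM in AL, 275 CPM in DR and 423 CPM in DR-AL, and Dusp1, a phosphatase that was reversed past AL, at 33.1, 22.9 and 51.9 CPM.

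Nutrient transport genes moved in both directions, with 6 of 20 higher, 4 lower and 6 reversed, and 2 higher with the wider error. Slc6a19, a carrier of neutral amino acids, had 105, 57 and 130 counts and returned, and so did Cd36, which takes up fatty acids, with 101, 48 and 104 counts. These were the 2 genes higher with the wider error, and Cd36 is also counted in the adipocyte list. Slc5a8, which takes up short-chain fatty acids with sodium, was the reversed gene that fell, at 347 CPM in AL, 458 CPM in DR and 290.4 CPM in DR-AL, a change of -0.66 (-0.70 to -0.62). Fabp2, the intestinal fatty acid binding protein, stood at 867, 417 and 524 CPM and fell short of AL. Apob, the protein of chylomicrons, stood at 449.8, 335 and 603 CPM and went past it. Absorptive colonocyte genes changed little, with 4 of 15 higher, 1 lower and 1 reversed, and none called under the wider error.

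**Figure D4:**
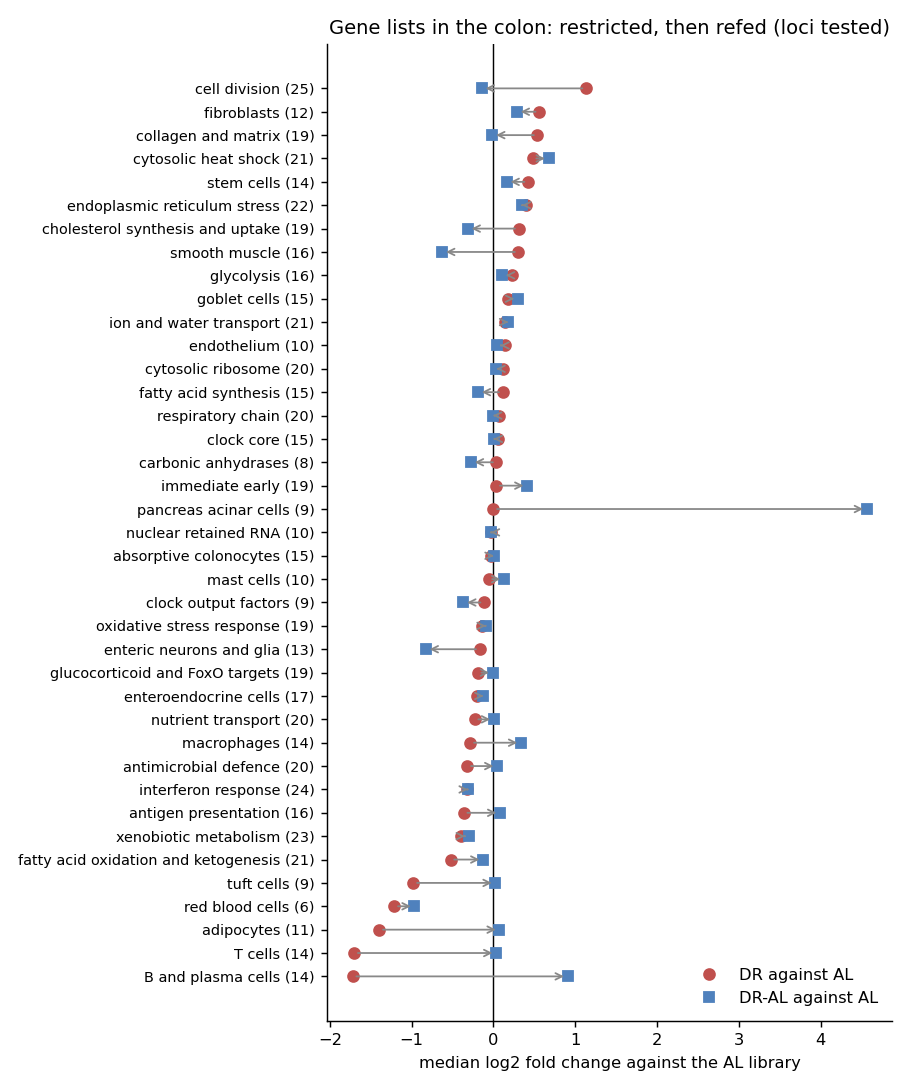
Median log2 fold change of each gene list against the AL library, in DR (red circles) and in DR-AL (blue squares), with the number of loci tested in parentheses and an arrow from DR to DR-AL. Cell division moves from 1.13 to -0.14, tuft cells from -0.98 to 0.02, heat shock from 0.48 to 0.67 and B and plasma cells from -1.72 to 0.91.

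Some of these lists were set beside those of the other 4 tissues, which were taken from mice on the same diets. Cell division genes were lower in DR-AL than in DR in 19 of 25 cases in the colon and 9 of 25 in the liver (median -0.50, with 2 higher), and higher in 19 of 26 in epididymal fat (median 0.93, with 1 lower). In the hypothalamus 2 of 26 were lower and 1 higher, and in the hippocampus none was called. Cholesterol genes were lower in 15 of 19 cases in the colon, all 19 in the liver (median -2.41), 15 in fat (with 1 higher), 1 in the hypothalamus and 6 in the hippocampus. Fatty acid oxidation genes were higher in 12 of 21 cases in the colon, 16 in the liver, 7 in fat (with 10 lower), 4 in the hypothalamus and 5 in the hippocampus. Angptl4 was higher in DR-AL than in DR in all 5 tissues. Heat shock genes were higher in 8 of 21 cases in the colon, 12 in the liver (with 1 lower) and 9 in fat (with 3 lower). In the hypothalamus 3 were lower, and in the hippocampus none was called. Smooth muscle genes were lower in 13 of 16 cases in fat and 8 of 16 in the hypothalamus (with 1 higher). In the liver 5 of 14 were lower and 3 higher, and in the hippocampus 4 of 15 were higher. In fat, 10 of 16 B and plasma cell genes (with 1 lower) and 10 of 15 T cell genes were higher. In the liver, 3 of 14 B and plasma cell genes and 6 of 14 T cell genes were higher, with none lower. In each brain region, at most 1 gene of either list was called in each direction. Collagen and matrix genes were lower in 13 of 19 cases in the hypothalamus, while 3 of 18 were higher in the hippocampus. They were also lower in 10 of 19 cases in the liver (with 2 higher) and 9 of 20 in fat (with 2 higher). Dbp, Nr1d2 and Gm129 were lower in DR-AL in all 5 tissues, with log2 fold changes of Dbp from -3.03 in fat to -0.73 in the hippocampus. The shares of all genes called higher and lower were 16.9% and 24% in the liver, 38.3% and 13.3% in fat, 2.82% and 6.8% in the hypothalamus and 3.63% and 1.26% in the hippocampus. Differences between tissues were not tested.

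**Figure D5:**
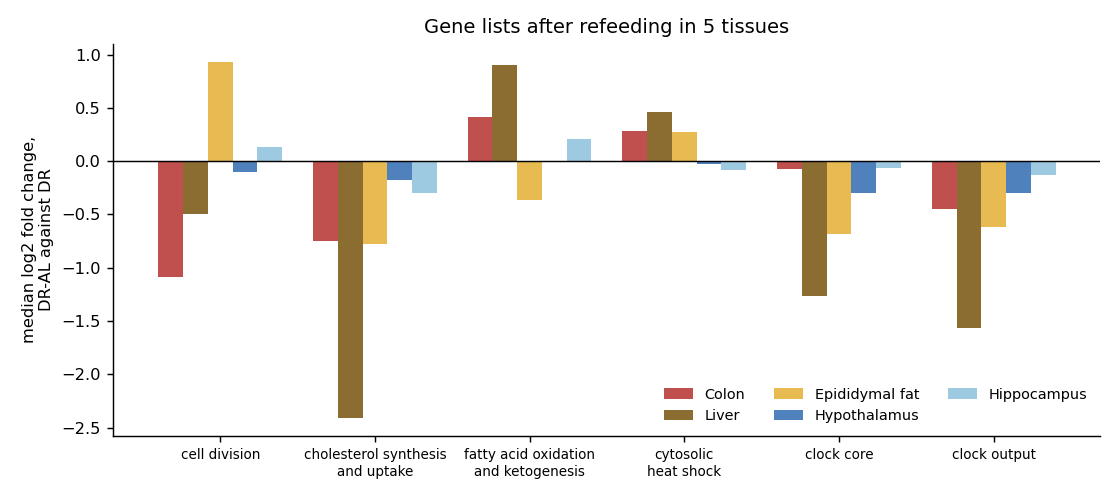
Median log2 fold change of DR-AL against DR for 6 gene lists in 5 tissues, 1 library per tissue and diet. The colon bar for cell division is -1.09 where that of epididymal fat is 0.93, and all 5 bars for cholesterol genes lie below 0.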

How the data were processed

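RNA was isolated from 5 tissues of mice on 3 diets, the RNA of 5 mice was pooled per tissue and diet, and strand-specific libraries depleted of ribosomal RNA were sequenced. After trimming, the authors mapped reads to the mouse genome with strand kept, removed duplicate reads and deposited raw counts per locus. The genome is mm10 in the study's methods and mm9 in the submitters' processing notes, so positions are given only from RefSeq. The deposited FPKM values are per length and depth, with the scaling between libraries not given in the sources used here, and serve only as an alternative. Removal of duplicates can lower the counts of abundant genes more than those of rare ones. No list gene encoded by the mitochondrial genome was measured.

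Counts were divided by the library total on named genes. Loci with no gene name, 1.03 to 1.26% of colon counts, were left out. Each pair of libraries was compared by a Z test on square roots of scaled counts with Poisson variance, adjusted over all 18242 genes. Log2 fold changes used counts scaled to the mean total with a pseudocount of 0.5, and intervals are exact Clopper-Pearson intervals at 95%. A count of 0 was taken to allow up to 3 counts. With 1 library per diet, no p-value for a diet was computed. The wider error is the exact test of edgeR 4.0.16 in R 4.3.3, and other steps used Python 3.11.15 with scipy 1.17.1 and pandas 2.3.3. The Z test was tried on counts simulated with Poisson error alone, which does not cover variation between libraries. Alternatives changed the scaling, the filter, the fold, the error, the depth and the unit.

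Genes were named by rule: the 8 largest changes per direction with a mean of at least 100 counts, the 8 reversed per direction with the largest smaller step, the 4 most counted members of each list, genes with a PCR assay in the study's methods, and the 4 largest per direction changed after refeeding only. Other list members named in the text were chosen after their values were seen. The members, the 40 gene lists (613 genes) and the tests were chosen with earlier results of these data known. Promoter windows from 250 bases before to 50 after the start came from RefSeq on GRCm38.p6 and were searched on both strands. Some genes that the rule names are not reported here.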

Additional observations from a re-analysis of the deposited data

Results flagged for a closer look

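Loci without a gene name lay outside the comparisons of the report. Of 5042 such loci tested, 261 changed between DR-AL and DR by the same rule (5.18%), with 161 higher and 100 lower in DR-AL, and 87 were reversed. Of named genes, 14.5% changed, with 1236 higher and 1400 lower. The loci without a name held 1.03 to 1.26% of colon counts and were adjusted apart from named genes, so these shares are not at equal depth. What the unnamed loci are was not analysed here.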

How the results depend on the processing

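No paired analysis was possible because each tissue and diet has 1 library. Scaling by DESeq size factors or by TMM factors moved the share of the changed genes that were higher in DR-AL from 46.9% to 50.5% and 50.3%. Folds from FPKM values moved it to 57.5% with a pseudocount of 0.1 and 63.2% with a pseudocount of 1. With a fold of at least 2, 1118 genes changed, 450 were reversed and 413 of these returned. With a coefficient of variation of 0.1, 667 genes changed (51.6% higher), 308 were reversed and 285 returned. With the dispersion estimated without regard to diet, 312 changed (57.1% higher), 99 were reversed and 96 returned. The exact binomial test, added after the data were seen, gave 2254 changed and 1141 reversed genes, and each other alternative left these counts within 1.5 times. Nr1d2 changed sign, from -0.37 to 0.0013 with both FPKM pseudocounts, and the cause was not tested. Over the other settings of scaling, depth and unit, fold changes of named genes stayed within their counting interval in 863 cases and moved beyond it without a change of sign in 263. List medians kept within the counting error of their members in 204 cases and moved in 30. At the depth here, 172 of the changed genes rested on at most 5 counts in the higher library. No alternative here replaces replicates of each diet or separates refeeding from age.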
